A study of Mus musculus with 3 samples.

Results

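The genes described here are 35 members of glycolysis and of the cellular response to low oxygen, followed through Langerhans cells (LCs) and their neighbours in mouse ear epidermis. They were taken by symbol from the feature lists of the deposited matrices, where 35 of 35 were found among 34289 features. They comprise 18 enzymes that carry glucose to lactate, from Hk1, Hk2 and Hk3 to Ldha and Ldhb, and 17 genes outside the enzyme list: 4 regulators of the pathway's entry and exit (Pfkfb3, Pfkfb4, Pdk1, Pdk3) and 13 genes of oxygen sensing or hypoxia response. Aldoa was listed under a pair of features, of which the second held 46 unique molecular identifiers (UMIs) over all libraries and was not used.

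LCs are antigen-presenting cells that live in the epidermis. Each of the 3 single-cell libraries came from ear epidermis of male Cd1 mice, an outbred stock, and each group has 1 library. Per the labels, the untreated mice had a depilatory cream (Nair) and nothing else; another group received croton oil, a plant-derived skin irritant, with acetone and olive oil, and the third was punched repeatedly with a microneedle array. Tissue was taken 48 h after the first treatment, epidermal cells were released with trypsin, and LCs were enriched magnetically. The number of animals per library is not given in the sources used here, so differences between libraries below have no replicate check, and neither p-values nor standard errors are given.

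Glycolysis splits glucose into pyruvate, which lactate dehydrogenase can reduce to lactate. Hexokinase traps glucose as its phosphate, phosphofructokinase is the main control point, and the 6-phosphofructo-2-kinase enzymes (Pfkfb) make the signal that switches phosphofructokinase on. Hif1a encodes the oxygen-regulated subunit of the hypoxia-inducible factor: prolyl hydroxylases (Egln) mark the protein for destruction while oxygen is present, and once stable it binds DNA and raises transcription of most glycolytic enzymes together with genes such as Bnip3, Ndrg1, P4ha1 and Ankrd37. Much of that control acts on the protein, which these data do not measure. Activated dendritic cells are known for increased glycolysis.

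The libraries held 9876 untreated, 8241 croton oil and 6945 microneedle cell barcodes with 127666928, 119360952 and 117178809 UMIs. The libraries shared 13 to 32 barcodes per pair. LCs were gated as cells with at least 2% of UMIs in Cd74, H2-Aa, H2-Ab1 and H2-Eb1 and at least 2 Epcam UMIs, which gave 8651, 5922 and 5295 LCs with a median of 11527, 12576.5 and 17342 UMIs. All 9 LC markers examined were at 20 CPM or more (a gene's UMIs scaled to a common total of counts per library) in the gated LCs of each library, and the 9 keratinocyte markers summed to 267.9 CPM in the untreated, 215.4 CPM in the croton oil and 53.8 CPM in the microneedle LCs. The gate left out most cells of a Ccr7- and Fscn1-led migratory LC cluster, keeping 28.0% of its 1053 cells in the croton oil and 19.5% of its 195 cells in the microneedle library. The LCs of the libraries lay in largely separate clusters: the largest one of each library held 4529 untreated cells with 0 croton oil and 232 microneedle cells, 4983 croton oil cells with 3 untreated and 120 microneedle cells, and 4125 microneedle cells with 99 untreated and 115 croton oil cells. Below, the main LC cluster of a library is therefore a different cluster in each, and library and cell state cannot be told apart in them. The main croton oil LC cluster was led by H2-Ea and the complement genes C1qa, C1qb and C1qc, and by no LC marker.

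In croton oil LCs the lower part of glycolysis stood above the untreated level as a block, while its first enzyme stood below. Of the 25 members with a mean of at least 20 CPM over the libraries, 8 were at least 2-fold higher in croton oil than in untreated LCs on the log2((CPM + 5)/(CPM + 5)) scale, and 0 were at least 2-fold lower. Over all 6341 genes tested the same way, 5.09% were higher by that much and 4.51% lower. The members called were Eno1, Pgam1, Gapdh, Pkm, Pfkfb3, Aldoa, Ldha and Pgk1, of which 7 are enzymes (12 enzymes were tested) and 1, Pfkfb3, is a regulator. The median log2 change was 0.52 over the 25 members, 1.04 over the 12 enzymes and 0.36 over the 13 others, beside -0.02 over all genes tested. Pgk1 lay nearest the mark, at 1.02, and fell below it in 4 of 14 other settings. Some of those 14 change only the 20 CPM filter, and so leave a member's own change the same by construction. The 10 members under 20 CPM were Hk3, Pfkl, Pfkm, Aldoc, Eno2, Ldhb, Pdk1, Egln3, P4ha2 and Adm. Intervals below are exact 95% Poisson or Clopper-Pearson intervals and cover counting error only; for the 25 members in LCs their half-width was at most 4.47% of the level.

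**Figure D1:**
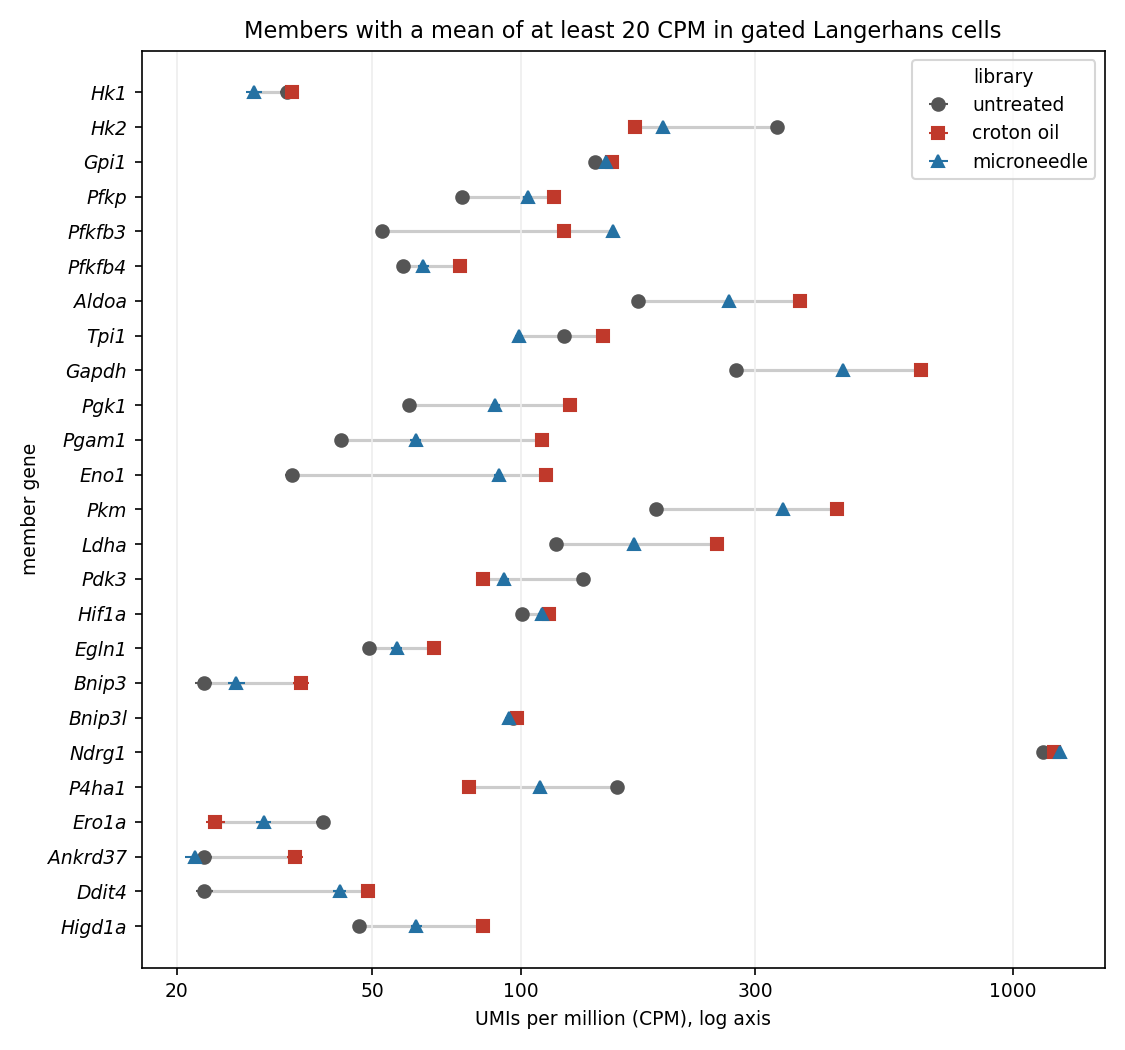
Level of each of the 25 members with a mean of at least 20 CPM in gated Langerhans cells of the untreated (circles), croton oil (squares) and microneedle (triangles) libraries, on a log axis, with exact 95% Poisson intervals where wider than the symbol. From Aldoa to Ldha the croton oil symbol lies to the right of the microneedle symbol, whereas Hk2, Pdk3, P4ha1 and Ero1a lie highest in the untreated library.

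Sequences upstream of the transcription start are shown for 6 members, because the hypoxia-inducible factor recognises the core motifs ACGTG and GCGTG and because members that share this motif differed in direction. Start sites are those of the canonical transcripts of GENCODE M39 on GRCm39, and each stretch is 100 bases of the 300 before the start, read 5′ to 3′ on the gene's strand. Capitals mark either motif on either strand (CACGT and CACGC are the reverse complements), and none of the 6 stretches overlaps an annotated exon. Gapdh, Eno1 and Pgk1 were at least 2-fold higher in croton oil LCs, Bnip3 was 1.58-fold higher, and Hk2 and P4ha1 were about as far below the untreated level as any member.
Pgk1, chrX:105230556-105230655, + strand: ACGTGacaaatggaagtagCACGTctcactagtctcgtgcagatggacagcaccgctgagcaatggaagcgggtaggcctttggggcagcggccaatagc
Gapdh, chr6:125142737-125142836, - strand: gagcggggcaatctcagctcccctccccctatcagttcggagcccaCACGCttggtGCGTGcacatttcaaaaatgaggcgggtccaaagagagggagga
Eno1, chr4:150320935-150321034, + strand: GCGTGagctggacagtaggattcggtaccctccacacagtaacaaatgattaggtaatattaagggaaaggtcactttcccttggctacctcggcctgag
Bnip3, chr7:138511254-138511353, - strand: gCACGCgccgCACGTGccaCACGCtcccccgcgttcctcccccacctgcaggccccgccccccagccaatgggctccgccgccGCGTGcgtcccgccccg
Hk2, chr6:82751642-82751741, - strand: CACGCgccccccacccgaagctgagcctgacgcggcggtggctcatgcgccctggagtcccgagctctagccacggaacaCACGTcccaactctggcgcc
P4ha1, chr10:59158955-59159054, + strand: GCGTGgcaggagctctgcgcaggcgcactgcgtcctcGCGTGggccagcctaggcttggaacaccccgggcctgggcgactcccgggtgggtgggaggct

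Within the 300 bases upstream, 26 of 35 members (74.3%) held at least 1 of these motifs, beside 9815 of 21770 protein-coding genes (45.1%). A palindromic CACGTG, as in the Bnip3 stretch, was counted on both strands. The motif occurred in 6 of the 8 members that were at least 2-fold higher in croton oil LCs and in 14 of the other 17 tested. Hk2 held 3 motifs and P4ha1 2, and neither Pfkfb3 nor Pkm held one. Both motifs contain CG, and the protein-coding genes were not matched to the members for GC content or expression. Members were also listed as hypoxia-response genes, so the difference in shares was not tested as an enrichment. These matches describe the letters in the window only.

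Hexokinase, the entry step, ran against most of the enzymes: Hk2 was the sole one of the 12 tested that was below 0 after croton oil, and 1 of 3, with Hk1 and Tpi1, after microneedling. Ldhb, an enzyme under 20 CPM, was lower in both treated libraries too. Hk2, the inducible and mitochondria-binding hexokinase, stood at 332.6 CPM in untreated LCs, 170.8 CPM after croton oil and 195.1 CPM after microneedling. Both treated libraries were lower than the untreated one, with log2 changes of -0.94 and -0.75, short of the 2-fold mark. Of 14 other settings, 3 put Hk2 past that mark after croton oil and 1 after microneedling, furthest with LCs restricted to their biggest cluster (-1.22 and -1.09). Hk1, the housekeeping hexokinase, was at 33.5, 34.2 and 28.8 CPM in the same order, and Hk3 at 0.5, 0.8 and 1.0 CPM. Hk1, Hk2 and Hk3 together were 0.56 times the untreated level in croton oil and 0.61 times in microneedle LCs.

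The next steps differed from untreated by less than 2-fold, and Gpi1 differed little. Gpi1, which converts glucose 6-phosphate to fructose 6-phosphate, was at 141.5 CPM in untreated LCs, 153.2 CPM after croton oil and 149.3 CPM after microneedling. Phosphofructokinase UMIs came mainly from Pfkp, the platelet-type subunit, at 75.9, 117.1 and 103.4 CPM, while Pfkl (12.5, 13.8 and 8.9 CPM) and Pfkm (3.0, 2.2 and 3.0 CPM) were low. Pfkp was higher in both treated libraries, 1.54-fold after croton oil and 1.36-fold after microneedling, under the 2-fold mark.

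From aldolase downward the order of the libraries was the same at nearly every step. Aldoa, which cleaves fructose 1,6-bisphosphate, was at 173.6 CPM in untreated LCs, 369.4 CPM after croton oil and 264.8 CPM after microneedling, and Aldoc at 11.8, 28.0 and 19.3 CPM. Triosephosphate isomerase was the exception: Tpi1 stood at 122.7, 147.0 and 99.2 CPM, so that the microneedle level was below the untreated one. The log2 changes of Tpi1 were 0.25 after croton oil and -0.29 after microneedling.

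Gapdh, which oxidises glyceraldehyde 3-phosphate and is often used as a reference gene, was at 274.6 CPM (95% interval 271.5 to 277.7) in untreated LCs, 650.1 CPM (644.6 to 655.7) after croton oil and 453.0 CPM (448.8 to 457.3) after microneedling. It had the highest level of the 18 enzymes in both treated libraries, but in the untreated library Hk2 was above it. Pgk1, the first ATP-forming enzyme, followed the same order at 59.4, 125.9 and 88.8 CPM. Pgam1, phosphoglycerate mutase, was at 43.2, 110.5 and 61.2 CPM, and so stood nearer to the untreated level in the microneedle than in the croton oil library.

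The largest change of any tested member after croton oil was that of Eno1, the enolase of most tissues, and it was also large after microneedling. Eno1 was at 34.4 CPM (33.3 to 35.5) in untreated LCs, 112.8 CPM (110.5 to 115.2) after croton oil and 90.3 CPM (88.4 to 92.2) after microneedling, a 3.28-fold and a 2.63-fold difference from untreated. The retrocopy Eno1b was counted separately, at 0.66, 1.84 and 1.47 CPM. Pkm, pyruvate kinase, was at 188.2, 438.9 and 341.6 CPM, and Ldha, which makes lactate, at 118.3, 250.2 and 169.9 CPM. Ldhb, the partner subunit that favours the reverse reaction, ran the opposite way at 26.4, 14.3 and 11.0 CPM.

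Summed over the member paralogs, 6 steps were more than 2-fold above untreated in CPM in croton oil LCs: enolase (3.24-fold), phosphoglycerate mutase (2.56-fold), GAPDH (2.37-fold), pyruvate kinase (2.33-fold), aldolase (2.14-fold) and phosphoglycerate kinase (2.12-fold). In microneedle LCs the enolase step alone passed that mark (2.60-fold), and the other 5 of these steps lay between 1.42-fold and 1.82-fold. Eno3, the muscle enolase, is outside the members; with it the enolase step was at 38.5 CPM in untreated LCs, 190.8 CPM after croton oil and 94.7 CPM after microneedling, or 4.96-fold and 2.46-fold above untreated. All 18 enzymes together made up 1652 CPM in untreated LCs, 2740 CPM after croton oil and 2089 CPM after microneedling.

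**Figure D2:**
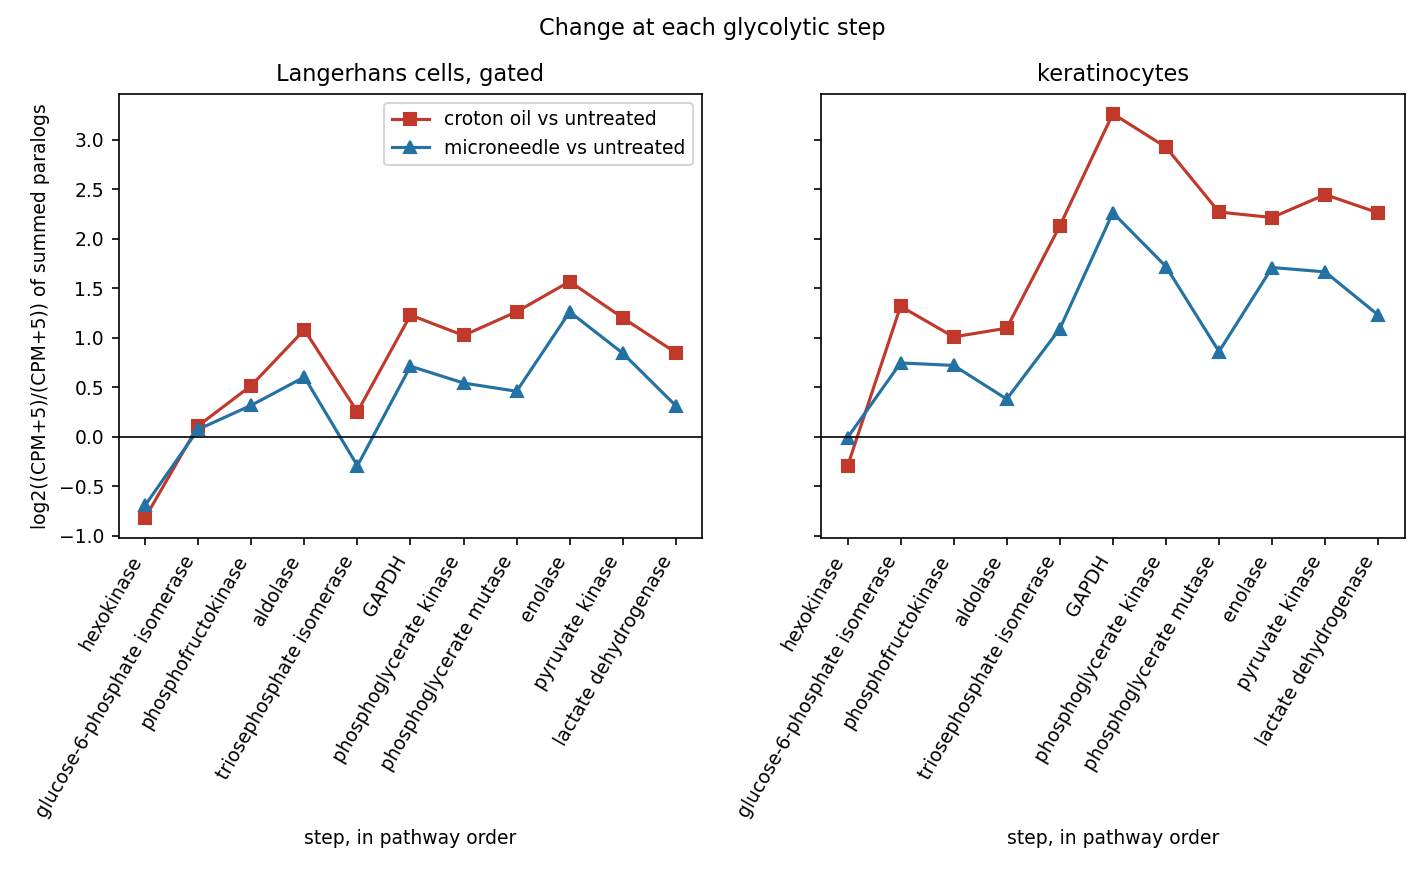
Log2 change in the summed level of the member paralogs at each of 11 glycolytic steps, in pathway order, for croton oil (squares) and microneedle (triangles) against untreated, in gated Langerhans cells (left) and keratinocytes (right). Hexokinase lies at -0.82 and -0.69 in Langerhans cells; its keratinocyte points include Langerhans cell RNA, which could account for 69.7% of untreated, 19.5% of croton oil and 32.8% of microneedle Hk2, and give no direction. GAPDH reaches 3.26 in croton oil keratinocytes and 1.23 in croton oil Langerhans cells.

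The regulators of the pathway's control point differed between paralogs. Pfkfb3, the paralog with the highest kinase activity relative to phosphatase, was at 52.2 CPM (50.9 to 53.6) in untreated LCs, 122.3 CPM (119.9 to 124.7) after croton oil and 153.8 CPM (151.3 to 156.3) after microneedling. It was the sole tested member, besides Ndrg1, whose microneedle level was the highest of the 3. Pfkfb4 was at 57.6, 75.2 and 63.4 CPM. At the exit, the pyruvate dehydrogenase kinase Pdk3, which holds pyruvate back from mitochondrial oxidation, was lower after both treatments at 133.7, 83.9 and 92.6 CPM, and Pdk1 stayed low at 14.3, 13.4 and 10.1 CPM.

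The oxygen-sensing members were close to untreated. Hif1a was at 100.8 CPM in untreated LCs, 114.4 CPM after croton oil and 110.7 CPM after microneedling, and Egln1, the main prolyl hydroxylase acting on it, at 49.1, 66.8 and 56.0 CPM. Their log2 changes ranged from 0.13 to 0.41 over both treatments. Egln3 was at 0.8, 1.3 and 0.5 CPM in LCs.

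Hypoxia-response members did not share 1 direction. Ndrg1, a growth-arrest and differentiation gene, was the most abundant member in LCs and nearly level, at 1154.8 CPM in untreated LCs, 1212.1 CPM after croton oil and 1247.0 CPM after microneedling. The mitophagy receptor Bnip3l was level too (96.3, 98.5 and 94.9 CPM), whereas its paralog Bnip3 was at 22.7, 35.8 and 26.5 CPM. Higd1a, a mitochondrial inner-membrane protein, was at 47.0, 83.7 and 61.4 CPM, and Ankrd37 at 22.7, 34.7 and 21.8 CPM.

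A pair of genes for protein folding and collagen modification was lowest after croton oil. P4ha1, a catalytic subunit of collagen prolyl 4-hydroxylase, was at 157.2 CPM (154.8 to 159.6) in untreated LCs, 78.5 CPM (76.6 to 80.5) after croton oil and 109.4 CPM (107.3 to 111.5) after microneedling. Ero1a, an oxidase that helps form disulfide bonds in the endoplasmic reticulum, was at 39.6, 23.9 and 30.1 CPM. In both genes the microneedle level lay between the others, and no log2 change reached the 2-fold mark (-0.96 and -0.50 for P4ha1, -0.63 and -0.35 for Ero1a). P4ha1 passed it after croton oil in 3 of 14 other settings, to -1.15 in the largest LC-like cluster.

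Ddit4, an inhibitor of mTORC1 that is induced by hypoxia, glucocorticoids and other stresses, was at 22.8 CPM in untreated LCs, 49.0 CPM after croton oil and 42.9 CPM after microneedling. Both treated libraries were higher, with log2 changes of 0.96 and 0.78; the first passed the 2-fold mark in 4 of 14 other settings and reached 1.29 with all cells of LC-like clusters. Adm, the secreted peptide adrenomedullin, remained under 20 CPM in LCs but was at 2.2, 11.3 and 4.9 CPM.

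After microneedling fewer members reached 2-fold. Eno1 and Pfkfb3 were at least 2-fold higher than in untreated LCs and 0 members were lower, where 3.75% of all tested genes were higher and 1.34% lower. The median log2 change was 0.17 over the 25 members and 0.48 over the 12 enzymes, beside 0.03 over all genes. At a 1.5-fold mark 6 members were higher and 1, Hk2, was lower, with 8.83% and 5.27% of all genes. The croton oil counts at that mark were 11 higher and 4 lower, with 14.7% and 14.8% of all genes; the 4 lower were Hk2, P4ha1, Pdk3 and Ero1a. Both comparisons use the same untreated library and are not independent of each other.

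Set directly against each other, the treated libraries differed by less than 2-fold in all 25 tested members (0 higher, 0 lower), with 1.26% of all genes at least 2-fold higher in croton oil and 0.994% lower. At 1.5-fold, Pgam1 alone was higher in croton oil LCs (log2 0.80), with 4.04% of all genes higher and 6.59% lower. The median was 0.41 over the 12 enzymes and 0.05 over the 13 other members, beside -0.07 over all genes. Of the 12 tested enzymes 11 were above 0, the exception being Hk2 at -0.19.

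The balance of paralogs moved within several families. Ldhb supplied 18.2% (17.6 to 18.9) of lactate dehydrogenase UMIs in untreated LCs, 5.41% (5.11 to 5.72) in croton oil and 6.07% (5.72 to 6.43) in microneedle LCs. Hk1 supplied 9.13% of hexokinase UMIs in untreated cells, 16.6% after croton oil and 12.8% after microneedling, with Hk2 making up nearly all the rest. Pfkfb3 supplied 47.6% of the Pfkfb3 and Pfkfb4 UMIs in untreated cells, 61.9% after croton oil and 70.8% after microneedling. Since 1 UMI stands for 1 captured 3′ end, these shares are of molecules and carry no correction for transcript length.

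The leading paralog of a family also differed between cell classes. Hk3 supplied 51.0% (45.2 to 56.8) of hexokinase UMIs in croton oil neutrophils, 32.6% (28.7 to 36.7) in microneedle neutrophils and 28.7% (25.2 to 32.3) in microneedle macrophages, but 0.42% or less in LCs. T cells of the croton oil library used Hk2 for 85.7% of hexokinase UMIs. Egln3 supplied 86.6% and 86.7% of the Egln1 and Egln3 UMIs in neutrophils, but 1.93% or less in LCs. In keratinocytes its share was 65.2% (62.2 to 68.1) in the untreated, 33.8% (32.2 to 35.3) in the croton oil and 31.2% (27.48 to 35.04) in the microneedle library. P4ha2 supplied 47.4% (37.9 to 56.9) of the P4ha1 and P4ha2 UMIs in T cells, with 0 of 157 and 0 of 265 UMIs in neutrophils (upper limits 2.32% and 1.38%).

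**Figure D3:**
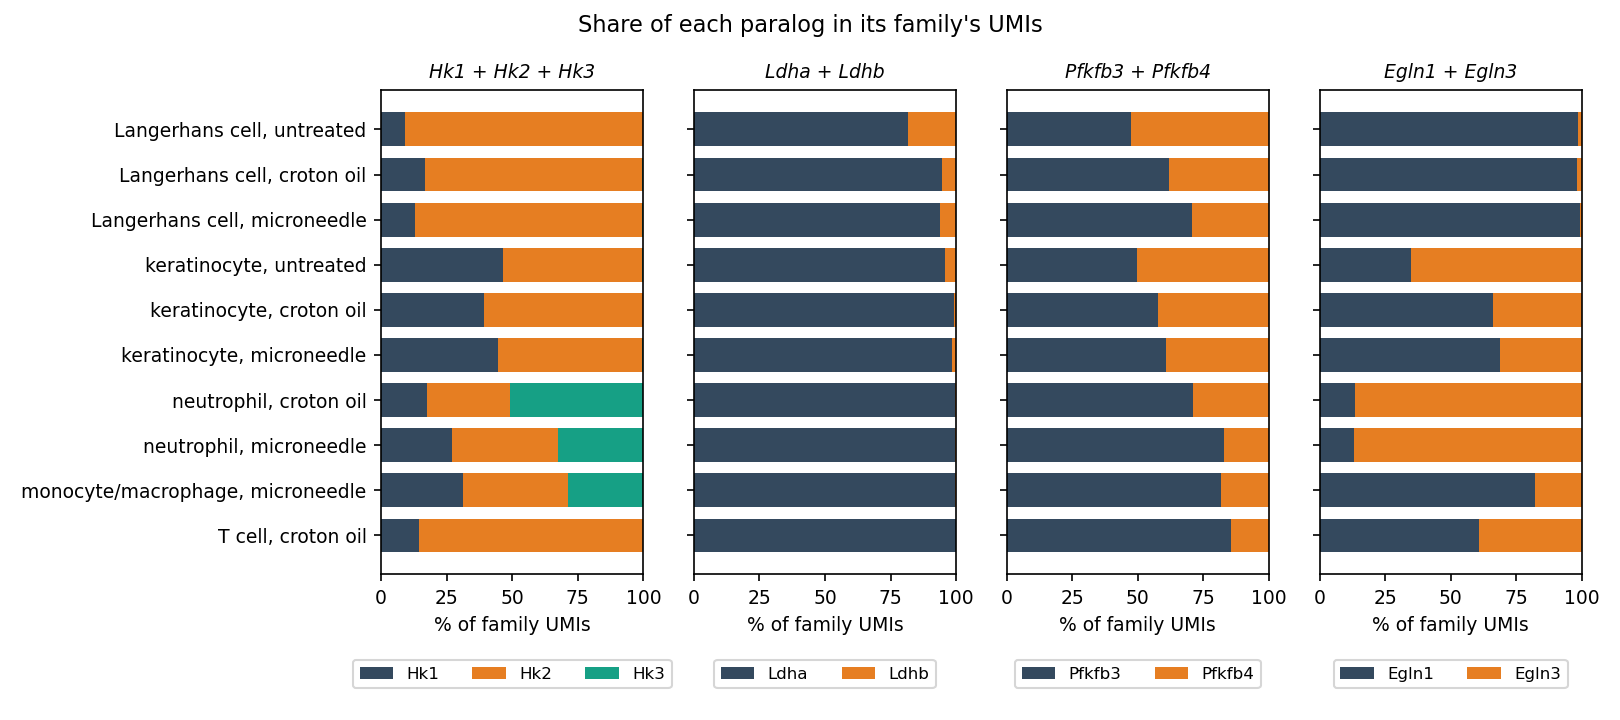
Share of each paralog in the summed UMIs of its family, in percent, for each cell class and library with at least 50 cells; 4 families are shown. Hk3 appears in neutrophils and macrophages, Ldhb mainly in untreated Langerhans cells, and Egln3 takes most of its family in neutrophils and in untreated keratinocytes.

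Per cell, the distribution of enzyme UMIs was higher at the 10th percentile, the median and the 90th percentile in both treated libraries. The 18 enzymes took a median of 0.150% of a cell's UMIs in untreated LCs, 0.244% after croton oil and 0.198% after microneedling, with 10th and 90th percentiles of 0.0888% and 0.251%, 0.150% and 0.422%, and 0.121% and 0.315%. Of croton oil LCs 46.7% lay above the untreated 90th percentile, and of microneedle LCs 24.7%. The medians were close between LCs with a Mki67 or Top2a UMI and LCs with neither such a UMI nor 2 Ccr7 or Fscn1 UMIs: 0.149% and 0.151% in untreated, 0.237% and 0.248% in croton oil, and 0.195% and 0.202% in microneedle LCs.

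**Figure D4:**
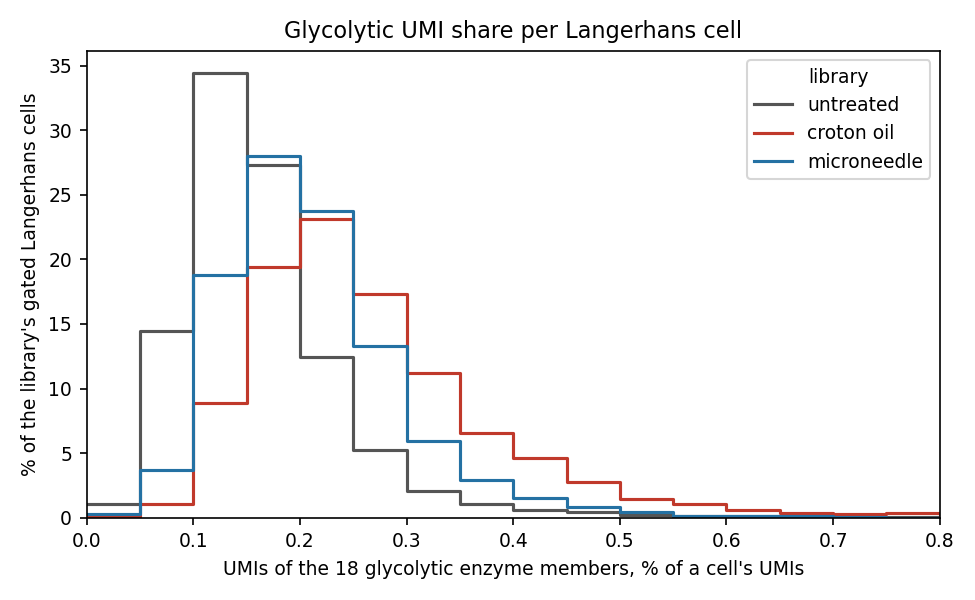
Distribution of the share of a cell's UMIs that fell in the 18 glycolytic enzyme members, in steps of 0.05 percentage points, for the gated Langerhans cells of each library; shares above 0.8% are not drawn. Medians are 0.150% (untreated), 0.198% (microneedle) and 0.244% (croton oil), and the 3 distributions overlap.

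The share of LCs with a UMI was also compared between libraries. After each cell was thinned to 3000 UMIs, Eno1 was found in 9.25% of 8549 untreated, 27.8% of 5890 croton oil and 23.0% of 5236 microneedle LCs (unthinned 31.5%, 70.4% and 68.5%). Thinning left out 102, 32 and 59 shallower cells. Hk2 was found in 43.1%, 31.7% and 31.7%, and P4ha1 in 32.8%, 17.8% and 24.7% (unthinned 75.1%, 63.1% and 68.5% for Hk2, and 66.9%, 51.9% and 67.0% for P4ha1). No class lacking these genes was at hand to give a background share.

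LC clusters, taken without the gate, showed where members varied within a library. In the migratory cluster Pfkfb3 was at 277.7 CPM in the croton oil and 601.4 CPM in the microneedle library, against 120.7 and 163.2 CPM in the main LC cluster of the same library. Ddit4 was likewise higher there (122.4 and 139.9 CPM against 51.6 and 43.8 CPM), and Hk2 (83.7 and 100.0 CPM against 172.4 and 190.7 CPM) and Ldha (126.3 and 70.4 CPM against 236.2 and 166.3 CPM) were lower. The neuronal enolase Eno2, under 1 CPM in the main clusters, was at 9.1 and 9.0 CPM. The gate leaves most of these cells out; without cycling and migratory cells, the log2 change of Pfkfb3 in gated LCs after croton oil went from 1.15 to 0.96, under the 2-fold mark, and after microneedling from 1.47 to 1.39.

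A cluster led by heat-shock genes, present in each library, had the highest sum of the 18 enzymes of any LC cluster in the croton oil (3293 CPM, against 2641 CPM in the main cluster) and the microneedle library (2581 CPM, against 2057 CPM). The part of dissociation stress in the enzyme levels was not tested. Without that cluster 7 members were at least 2-fold higher after croton oil (Pgk1, at a log2 change of 0.99, was not) and 1, P4ha1, was lower. The share of all genes called in that setting is not given here. In untreated LCs, Hk2 was at 410.8 CPM in the largest cluster and 247.3 CPM in the next. In the cycling cluster of the untreated library, Gapdh reached 541.3 CPM against 233.6 CPM in the largest cluster, with Aldoa at 77.0 against 154.8 CPM.

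Keratinocytes, the epithelial cells of the epidermis, showed a larger difference in most of the same enzymes. Aldolase was an exception: Aldoa and Aldoc together were 2.16-fold above untreated in keratinocytes and 2.14-fold in LCs after croton oil, and 1.31-fold and 1.53-fold after microneedling. They numbered 240 untreated, 219 croton oil and 97 microneedle cells. Of 25 members tested there, 13 were at least 2-fold higher after croton oil and 1, Pdk3, was lower, where 12.2% of all genes were higher and 12.9% lower; after microneedling 8 were higher and 0 lower, with 6.62% and 5.50% of all genes. The median log2 change of the 13 tested enzymes was 2.17 after croton oil and 1.09 after microneedling. Between the treated libraries, 4 members (Pgam1, Pgk1, Tpi1 and Ldha) were higher after croton oil and 0 lower, with 1.11% and 6.38% of all genes.

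Gapdh was at 173.7 CPM in untreated cells, 1709.2 CPM after croton oil and 852.2 CPM after microneedling, and Pgk1 at 52.7, 433.2 and 185.1 CPM. Ldha stood at 209.5, 1058.5 and 511.7 CPM and Pgam1 at 140.1, 694.2 and 258.4 CPM. In each of these genes the order of the libraries was that of the LCs, with a wider spread. Hk2 (74.8, 68.9 and 77.1 CPM) and Hk1 (65.8, 44.8 and 62.6 CPM) differed less between libraries. LC RNA in the keratinocytes, estimated from the class II genes, could account for 69.7%, 19.5% and 32.8% of the Hk2 level, so these Hk2 levels give no order of the libraries. In keratinocytes with under 0.5% of UMIs in class II genes, Hk2 was at 27.8 CPM in untreated cells, 52.3 CPM after croton oil and 71.3 CPM after microneedling. Krt10, of differentiated layers, was at 22927, 515.5 and 3971 CPM in those cells. Among basal keratinocytes (more Krt14 and Krt5 than Krt10 and Krt1 UMIs) Hk2 was instead highest in untreated cells, at 105.0, 68.9 and 80.7 CPM. Their Cd74, a class II gene of the gate, was at 5221, 1652 and 2445 CPM.

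Against LCs of the same library, neither class stood above the other in most members of untreated epidermis: LCs were at least 2-fold lower than keratinocytes in 5 of 25 tested members and higher in 4 (all genes 17.9% and 18.5%). After croton oil LCs were lower in 14 of 29 and higher in 5 (19.4% and 19.9%), and after microneedling lower in 11 of 27 and higher in 5 (18.2% and 17.0%).

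Members outside the enzymes also differed from the LC pattern in keratinocytes. Hif1a was at 77.1, 258.9 and 178.3 CPM and Egln1 at 59.2, 219.6 and 122.5 CPM, both more than 2-fold above untreated in CPM after either treatment. Pfkfb3, called in LCs, was at 17.5, 15.5 and 32.0 CPM. LC RNA could be part of these levels, and no order of the libraries is read from them. The LCs beside them held 52.2, 122.3 and 153.8 CPM of Pfkfb3, and keratinocyte class II genes were at 15.7%, 7.88% and 12.97% of the LC level. Pdk1 (33.8, 53.2 and 51.9 CPM) and Pdk3 (68.2, 24.5 and 37.7 CPM) exchanged ranks, so that Pdk1 supplied 33.1% of their UMIs in untreated cells, 68.5% after croton oil and 57.9% after microneedling. By the class II genes, LC RNA could account for 30.7%, 27.0% and 31.9% of the Pdk3 level, which would leave 47.3, 17.9 and 25.7 CPM. Ddit4 was lower after croton oil (53.2 and 35.2 CPM), the opposite of LCs.

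The keratinocytes differed between libraries in kind as well. Krt10, of differentiated layers, was at 14747 CPM in untreated cells, 596.4 CPM after croton oil and 4080 CPM after microneedling, and Krt14, of the basal layer, at 4747, 17479 and 15386 CPM. Mki67 was at 19.5, 180.3 and 148.9 CPM. Among basal cells alone (more Krt14 and Krt5 than Krt10 and Krt1 UMIs), Gapdh was at 218.3, 1774 and 947.0 CPM, and 13 members were at least 2-fold higher and 3 lower after croton oil (all genes 10.9% and 14.4%), and 7 were higher and 0 lower after microneedling (5.51% and 4.06%). In keratinocytes with at most 1 Mki67 or Top2a UMI, 13 were higher and 1 lower after croton oil (7.03% and 11.1%), and 8 higher and 0 lower after microneedling (3.58% and 4.17%). In those with under 0.5% class II UMIs, 14 of 24 tested were higher and 1 lower after croton oil (20.5% and 15.8%), and 11 higher and 1 lower after microneedling (18.1% and 9.68%). LC RNA was present in keratinocytes, by the class II genes at 15.7%, 7.88% and 12.97% of the LC level, which would account for 59.8%, 40.4% and 57.8% of keratinocyte Ndrg1.

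Free keratinocyte RNA in LC droplets was small by the same reckoning. Krt14, Krt5, Krt10 and Krt1 in LCs were at 0.772%, 0.588% and 0.148% of their keratinocyte level, and the largest share of a tested member's LC level that any 1 other class could account for was 3.69%, for Pgam1 from keratinocytes in the croton oil library. Of the 10 members under 20 CPM, 4 exceeded that share: it reached 108.6% for Egln3 in untreated LCs (from keratinocytes), 69.0% for P4ha2 in croton oil LCs (from T cells), and 24.9% for Hk3 and 19.4% for Eno2 in microneedle LCs (from macrophages). The LC levels of Egln3 and P4ha2 were not read as expression.

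Neutrophils, 212 in the croton oil and 393 in the microneedle library, had a higher sum of the 18 enzymes than the LCs beside them, at 6255 CPM and 3861 CPM. In the croton oil library LCs were at least 2-fold lower than neutrophils in 15 of 28 tested members and higher in 2 (all genes 18.7% lower, 39.1% higher), and in the microneedle library lower in 11 of 27 and higher in 3 (19.9% and 43.9%). Gapdh was at 1640.6 and 1143.7 CPM and Pkm at 1298.9 and 1098.1 CPM in neutrophils. Hk2 was lower in neutrophils than in LCs of both libraries (125.5 and 136.4 CPM), and in the microneedle library so were Gpi1 (104.9 against 149.3 CPM) and Aldoa (200.0 against 264.8 CPM). Ndrg1 ran the other way, at 84.1 and 125.3 CPM in neutrophils against 1212.1 and 1247.0 CPM in the LCs beside them.

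Between the neutrophils of the treated libraries, 9 of 27 tested members were at least 2-fold higher after croton oil and 0 lower, where 10.0% of all genes were higher and 11.2% lower. Gpi1 was at 385.8 CPM after croton oil and 104.9 CPM after microneedling, Pgam1 at 455.2 and 135.2 CPM, Aldoa at 488.6 and 200.0 CPM, and Bnip3 at 96.1 and 27.2 CPM. Pfkfb3, at 240.3 and 384.5 CPM, and Hif1a, at 407.2 and 570.9 CPM, were higher after microneedling instead. Neutrophil depth was low, with medians of 3041.5 and 3272 UMIs, and half-widths of the counting interval reached 38.3% of the level (Pfkl).

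The 380 macrophages of the microneedle library held 5188 CPM of the 18 enzymes, and LCs beside them were at least 2-fold lower in 12 of 25 tested members and higher in 3 (all genes 17.5% and 16.2%). Hif1a was at 935.6 CPM in macrophages, the highest of any class, against 110.7 CPM in LCs. Pgam1 was at 547.3 CPM and Eno1 at 366.6 CPM, and Eno2 reached 29.3 CPM.

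The 129 T cells of the croton oil library resembled the LCs more closely in the pathway's sum, at 2269 CPM. LCs were at least 2-fold lower in 6 of 30 tested members and higher in 4, with 22.0% of all genes lower and 12.2% higher. Hk2 was at 459.2 CPM in T cells against 170.8 CPM in LCs, and P4ha2 at 59.2 against 0.6 CPM. Gapdh (342.0 CPM), Pgk1 (61.4 CPM) and Pkm (189.6 CPM) were below the levels in LCs of that library.

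**Figure D5:**
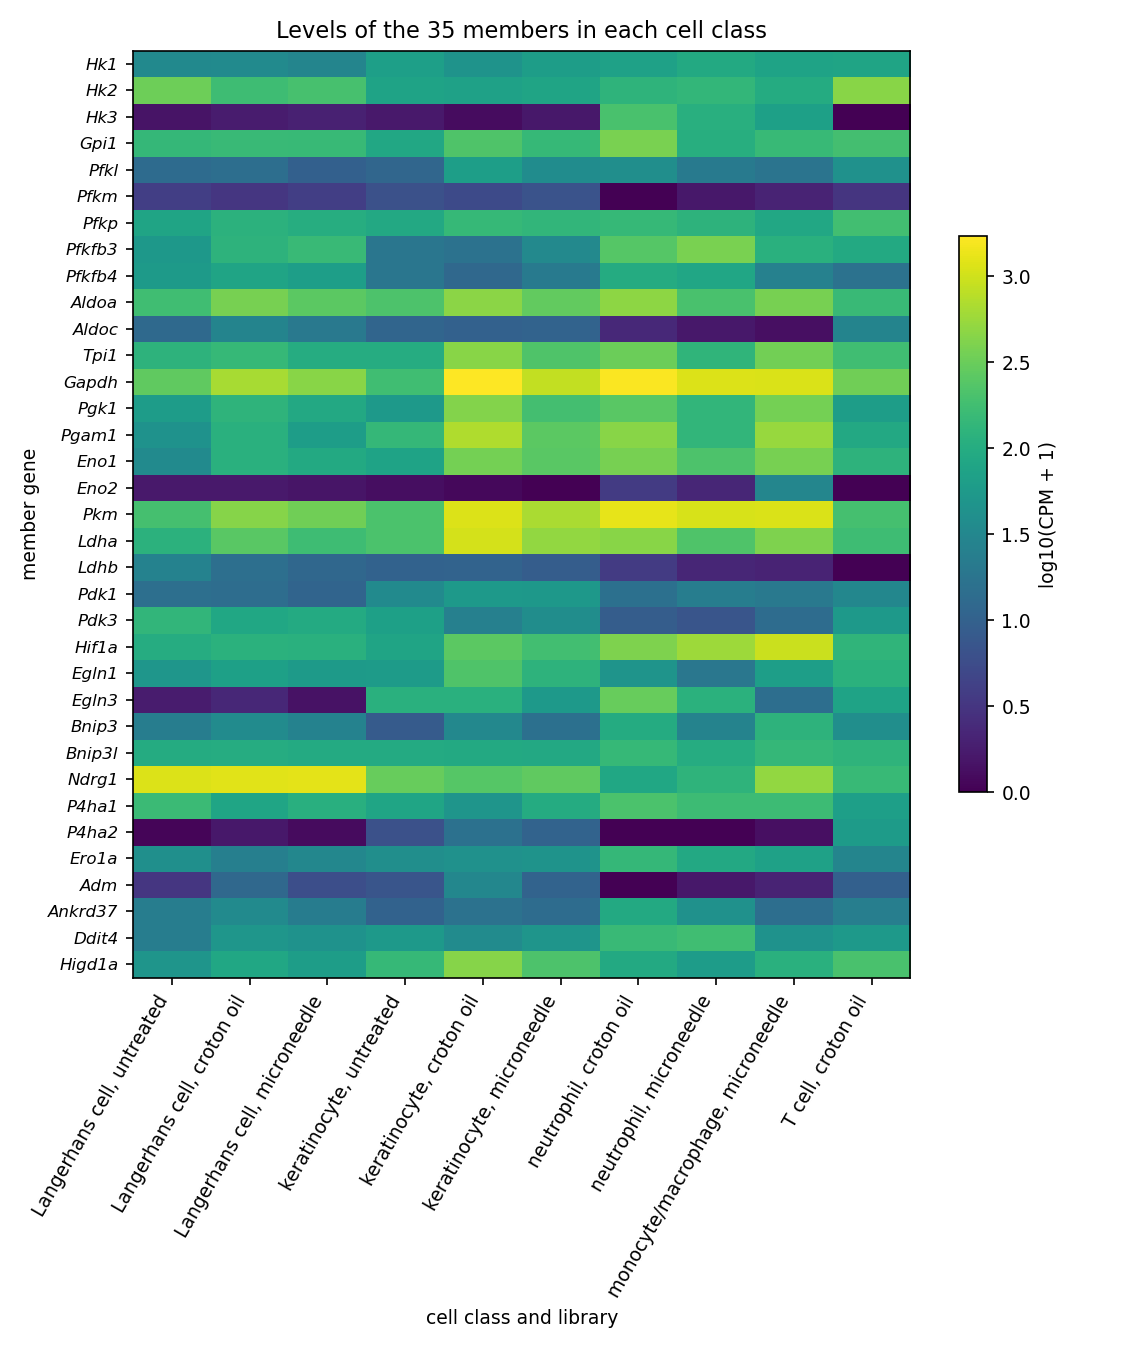
Level of each of the 35 members, as log10(CPM + 1), in each cell class and library with at least 50 cells. Ndrg1 is brightest in Langerhans cells, Gapdh and Pkm in croton oil keratinocytes and in neutrophils and macrophages, and Hk3 and Egln3 stand out in neutrophils against Langerhans cells near 0.

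Genes of the same pathways outside the members were counted from 9 lists of 102 genes. Among other glycolytic enzymes and regulators in LCs, 1 of 5 tested was at least 2-fold higher after croton oil and 0 after microneedling (all genes 5.09% and 3.75%). It was Eno3, the muscle enolase, at 3.5 CPM in untreated LCs, 77.3 CPM after croton oil and 3.9 CPM after microneedling, so that it supplied 40.5% (39.7 to 41.3) of Eno1, Eno2 and Eno3 UMIs in croton oil LCs. Eno3 reached the mean level needed for testing only through the croton oil library. Slc2a1, the sole glucose or lactate transporter tested, was at 42.9, 58.9 and 41.2 CPM, while Slc2a3 (38.8, 7.7 and 12.9 CPM) was just under the level needed.

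In the citric acid cycle 0 of 13 tested genes, in the pentose phosphate pathway 0 of 4, in pyruvate entry 0 of 6 and in oxygen sensing 0 of 6 were at least 2-fold different in LCs in either direction after either treatment. Over all genes 5.09% were higher and 4.51% lower after croton oil, and 3.75% and 1.34% after microneedling, so counts of 0 in lists this short are near the background. Their medians after croton oil were 0.14, 0.51, 0.34 and 0.37, beside 0.52 over the members and -0.02 over all genes; 4 of 4 pentose phosphate genes were above 0. Rbx1, a subunit of the ligase that degrades Hif1a protein, came nearest to the mark, at 152.1, 307.2 and 189.1 CPM (log2 0.99 after croton oil, 2.02-fold in CPM). Taldo1, a pentose phosphate enzyme, followed at 107.6, 200.2 and 154.7 CPM. Vhl, another subunit of that ligase, ran the other way at 55.4, 32.3 and 31.7 CPM. Its log2 changes of -0.70 and -0.72 were the lowest of the oxygen-sensing list.

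Among other hypoxia targets, 3 of 13 tested were at least 2-fold higher and 0 lower after croton oil (all genes 5.09% and 4.51%), and after microneedling 3 were higher and 1, Cited2, was lower (3.75% and 1.34%). After croton oil 7 of the 13 were above 0 and 6 below. Bhlhe40, a transcriptional repressor, was at 6.5 CPM in untreated LCs, 151.9 CPM after croton oil and 54.8 CPM after microneedling, Vegfa, the vascular growth factor, at 14.5, 65.0 and 72.5 CPM, and Mxi1, a Myc antagonist, at 120.7, 391.9 and 320.8 CPM. The medians of the list were 0.02 and -0.09. Among glucocorticoid and feeding-state targets, Txnip, which restrains glucose uptake, was at 1216.9, 536.0 and 655.2 CPM (1 of 4 lower after croton oil, all genes 4.51%). Fkbp5 was at 45.2, 75.2 and 130.7 CPM (1 of 4 higher after microneedling, all genes 3.75%). Of 3 amino acid and stress genes tested, 1, Ddit3, was at least 2-fold lower after croton oil (78.1 and 34.5 CPM) and 0 after microneedling (all genes 4.51% and 1.34%).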

How the data were processed

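The deposited values were UMI counts, which the authors had obtained with Cell Ranger 8.0 on GRCm39, per the submitters' processing notes, from Chromium 3′ libraries, per the labels. They were not normalized; how reads shared with pseudogene copies were counted is not given in the sources used here. Cells with at least 500 genes and at most 10% mitochondrial UMIs were kept. Scrublet's own threshold marked 1, 0 and 0 cells, so the top-scoring 0.8% per 1000 cells were removed (773, 532 and 376), which left 9054, 7626 and 6479 cells. Cells were clustered jointly in scanpy 1.11.5 (Leiden, resolution 0.5, no correction between libraries).

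A cluster was named by a class with at least 3 markers, and at least a 0.5 share of its list, present. Other classes than LCs were their cluster's cells outside the gate and under 2% class II UMIs. The naming rule and this limit were set after the clusters had been seen, and members and lists were chosen with earlier results of these data known. Counts were summed per class and library, expressed as CPM and compared as log2((CPM + 5)/(CPM + 5)); low genes appear less changed on this scale than they are. Genes needed a mean of 20 CPM over the libraries compared, and classes 50 cells in a library. Members over 20 CPM in LCs are given in full, the rest in brief; other genes are the furthest from untreated in their list. The scripts were tested on simulated data. Gene models and sequence came from GRCm39 and GENCODE M39, in which 35 of 35 members were matched by identifier. Alternative scalings used edgeR 4.0.16 and DESeq2 1.42.0. The values of 1 gene in these lists of other pathway genes, and the calls that rest on it, are not reported here.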

Additional observations from a re-analysis of the deposited data

Results flagged for a closer look

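Ddit4 had opposite directions in 2 cell classes of the same libraries. Its log2 change after croton oil was 0.96 in LCs (2.15-fold in CPM) and -0.54 in keratinocytes (0.661 times the untreated level). With 1 library per group this difference was not tested, and the keratinocytes also differed between libraries in their shares of basal and differentiated cells.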

How the results depend on the processing

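No paired analysis was possible because each group has 1 library, and for the same reason no replicate could be left out. Under 14 alternative settings for LCs, 23 of 25 members kept the sign of their change after croton oil, 24 of 25 after microneedling and 22 of 25 between the treatments; the exceptions lay near 0 (Bnip3l and Hk1, Pfkfb4, and Gpi1, Ndrg1 and Pdk3). The settings that change only the filter on low genes (a mean of at least 50 CPM, or none) cannot alter a member's own change. Of the 8 members at least 2-fold higher after croton oil, 5 were called under every setting (Aldoa, Eno1, Gapdh, Pgam1 and Pkm), and so were both after microneedling. Pgk1 was between 0.98 and 0.99 under 4 settings (total without mitochondrial and ribosomal genes, stricter gate, mean over cells, no heat-shock-led cluster). Ldha dropped to 0.95 with the cells of all LC-like clusters and Pfkfb3 to 0.96 without cycling and migratory cells. Ddit4, at 0.96 after croton oil, passed the mark under 4 settings, at up to 1.29.

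The median after croton oil was 0.25 with no filter on low genes, 0.64 with median-of-ratios factors and 0.39 with all cells of LC-like clusters. The number of members at least 2-fold lower after croton oil went from 0 to 1 without mitochondrial and ribosomal genes in the total, with all cells of LC-like clusters, without cycling or migratory cells and without the heat-shock-led cluster, to 2 in the largest LC-like cluster, and to 4 at 1.5-fold. After microneedling the median was 0.26 with a mean of at least 50 CPM and 0.27 in the largest LC-like cluster, where 1 member was lower; at 1.5-fold 6 were higher and 1 lower. Between treatments the median was 0.36 with TMM factors and 0.37 with median-of-ratios factors, and 1 member was higher at 1.5-fold. Median-of-ratios factors moved the median of all genes after croton oil from -0.02 to 0.10, and between treatments from -0.07 to 0.07. Without mitochondrial and ribosomal genes the median enzyme share per cell was 0.173%, 0.272% and 0.222%. Of keratinocyte members, 1 was lower after microneedling in cells under 0.5% class II UMIs, and 3 were lower after croton oil in basal cells. The keratinocyte settings and the one without the heat-shock-led cluster were chosen after seeing the data. The LC counts at 2-fold stand here without the share of all genes in each setting. They show how calls moved and not an excess over the background. The causes of these shifts were not tested.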

Other observations

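Eno3 was also unequal within the croton oil LCs. It was at 67.4 CPM in the main LC cluster and 366.6 CPM in the migratory cluster of that library, and at 3.7 and 75.9 CPM in the corresponding clusters of the microneedle library. In other classes of the croton oil library it stood at 12.1 CPM in keratinocytes, 5.5 CPM (1.8 to 12.8) in T cells and 4.0 CPM (0.83 to 11.7) in neutrophils. The T cell and neutrophil levels rest on 5 and 3 UMIs. LC RNA was not taken off in any of these classes, so these levels were not read as expression. Bhlhe40 was higher in the migratory cluster too, at 506.8 CPM against 140.6 CPM in the croton oil library and 586.0 CPM against 53.8 CPM in the microneedle library, and Mxi1 was at 741.1 against 424.6 CPM and 1105.2 against 349.3 CPM. The lactate exporter Slc16a3 was at 523.3 and 559.2 CPM in neutrophils of the croton oil and microneedle libraries, 92.0 CPM in microneedle macrophages, and 19.3 and 11.6 CPM in LCs. Respiratory chain genes, chosen by symbol after the data were seen, had a median log2 change in LCs of 0.45 after croton oil and 0.18 after microneedling over 75 tested.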
